A study of Homo sapiens with 8 samples.

Results

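The semaphorins, netrins and slits and their receptors form 46 genes, 25 for ligands and 21 for receptors, which were taken by symbol from a list of gene families. The rule uses no measured value, but the families were picked with earlier results of these data known. Each symbol matched a single Ensembl gene in GENCODE 29, among the 60609 gene identifiers of the deposited count table. HCT116, a human colon cancer line in long use, was the source of all 8 RNA sequencing libraries. The parental group (genotype GNAS wt, treatment Ctrl) held 4 libraries, and the GNAS R201C/+ group held 4 libraries of a derivative with treatment CRISPR-Cas9, heterozygous for R201C in GNAS, the gene for the stimulatory G protein alpha subunit. R201C is known to keep this subunit active, which raises cyclic AMP (cAMP). Both groups grew in DMEM/F12 with 10% serum. The sources used here do not say whether the derivative is 1 clone or whether replicates were separate cultures, so differences between clones and effects of the mutation cannot be told apart. The p-values below reflect the scatter among these 8 libraries alone, and that scatter may be technical.

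Libraries held 42584988 to 50986733 counts, and 24429 to 25079 genes had at least 1 read. Total GNAS reads lay at 661 to 700 CPM (counts scaled to a common library size) in parental and 696 to 722 CPM in GNAS R201C/+ libraries. Such totals carry no allele and do not check the edit. Of 9 colon epithelial markers, EPCAM, CDH1, KRT8, KRT18, KRT19 and CDX2 were well counted, while CDX1 was listed at 0 and VIL1 and LGALS4 had at most 10 reads in a library. The summed level of this list was 3853 to 4008 CPM in parental and 4399.9 to 4482 CPM in GNAS R201C/+ libraries. Summed endothelial markers (10 genes) were at 70.3 to 75.5 and 84.7 to 92.0 CPM, nearly all of it EGFL7, whereas PECAM1 and CDH5 had at most 6 reads in a library and CLDN5 was listed at 0. Summed neuronal markers (10 genes) were at 80.2 to 82.5 and 69.4 to 71.6 CPM, mostly SYT1, with STMN2 and ELAVL4 listed at 0. The part of these shifts in the results below was not tested. Summed fibroblast markers (10 genes) stood at 66.0 to 69.4 and 64.0 to 69.3 CPM, mostly COL1A1 and FBLN1 with DCN, LUM and PDGFRA listed at 0, and leukocyte markers (10 genes) at 1.06 to 1.28 and 0.965 to 1.52 CPM with PTPRC listed at 0.

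Semaphorins, netrins and slits were named for steering growing axons, and they also act on endothelial, immune and epithelial cells. Secreted class 3 semaphorins mostly bind a neuropilin, which holds the ligand, together with a plexin, which carries the signal into the cell through its GTPase-activating domain. Membrane-bound semaphorins bind plexins directly. Netrins signal through DCC, neogenin and the UNC5 receptors, and slits through roundabout (ROBO) receptors. DCC was found as a gene deleted in colorectal cancer, and SEMA3B and SEMA3F were found in a region of chromosome 3 often lost in lung cancer.

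Several secreted class 3 semaphorins and a pair of low-level receptors differed in GNAS R201C/+ cells. SEMA3C rose 3.81-fold, SEMA3A rose 2.74-fold and SEMA3B rose 1.71-fold, while SEMA3E fell 2.22-fold. Among receptors, the neuropilin NRP2, which binds SEMA3C, SEMA3F and SEMA3G, fell 3.49-fold, and the netrin receptor UNC5C went from 0 reads in all parental libraries to 12 to 15 reads in each GNAS R201C/+ library. The highly expressed plexins moved by less than 1.2-fold. Of the 46 genes, 34 had enough reads to be tested, 10 were higher and 11 were lower at an edgeR adjusted p under 0.05, and 13 did not pass. That is 61.8% of the tested members, against 48.1% of all 15751 genes tested. Changes of at least 2-fold that passed the test were found in 5 of the 34 (14.7%), against 1.54% of all tested genes. They were 3 higher (SEMA3A, SEMA3C and UNC5C, against 0.838% of all tested genes) and 2 lower (SEMA3E and NRP2, against 0.698%). UNC5C entered the test only through its GNAS R201C/+ reads. The median log2 change of the members was -0.01 and the median size 0.12, beside 0.0019 and 0.12 over all tested genes. Because of how the families were picked, these shares describe the list and test nothing.

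**Figure D1:**
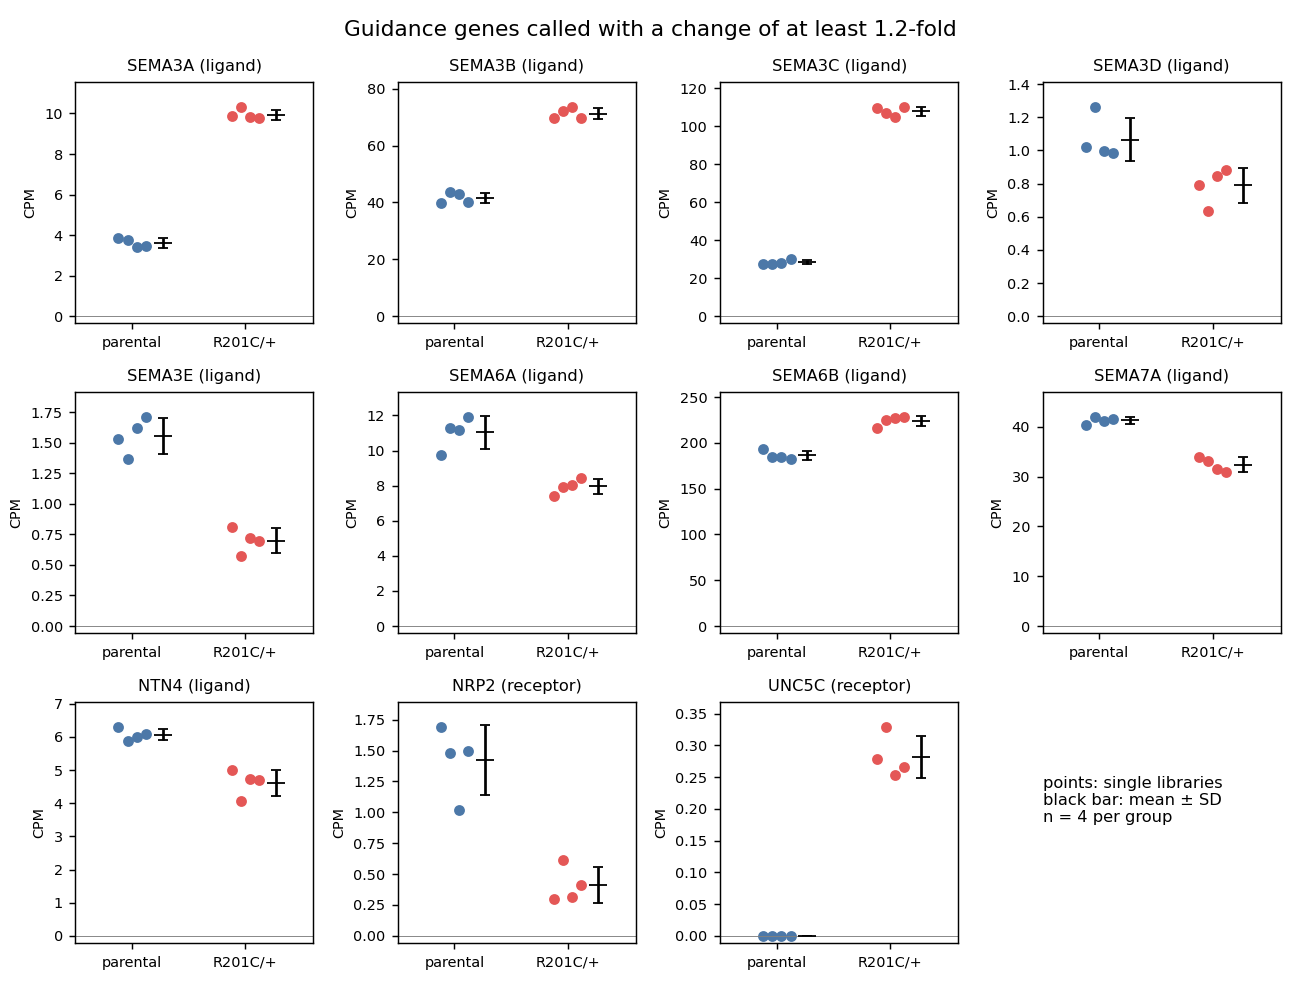
Level in CPM in single libraries (vertical axes, linear, each with its own range) for the 11 guidance genes called with a change of at least 1.2-fold, with 4 points per group and the mean ± SD in black. In each panel the groups do not overlap. SEMA3C lies at 27.6 to 30.1 CPM in parental and 105 to 110.0 CPM in GNAS R201C/+ libraries, and UNC5C lies at 0 in all parental libraries.

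Promoter sequences are shown for the members that passed the test with a change of at least 1.5-fold and have an entry in the RefSeq promoter table (build GRCh38.p14), which gives 250 bases before and 50 after the annotated start. SEMA3A has no entry. Because the edit bears on cAMP, the cAMP response element TGACGTCA and its core TGACG, which lies within it, were searched on both strands, and matches are in capitals. The windows, written 5′ to 3′ on the strand of the gene, are chr3:50272869-50273168 (plus strand), chr7:80922340-80922639 (minus), chr7:83649090-83649389 (minus), chr2:205682251-205682550 (plus) and chr4:95548924-95549223 (minus).
SEMA3B: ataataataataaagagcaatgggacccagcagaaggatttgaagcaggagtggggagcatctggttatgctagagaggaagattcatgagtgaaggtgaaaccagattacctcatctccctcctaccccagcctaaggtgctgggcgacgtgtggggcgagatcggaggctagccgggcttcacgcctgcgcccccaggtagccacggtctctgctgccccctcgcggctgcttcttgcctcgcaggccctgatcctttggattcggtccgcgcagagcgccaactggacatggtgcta
SEMA3C: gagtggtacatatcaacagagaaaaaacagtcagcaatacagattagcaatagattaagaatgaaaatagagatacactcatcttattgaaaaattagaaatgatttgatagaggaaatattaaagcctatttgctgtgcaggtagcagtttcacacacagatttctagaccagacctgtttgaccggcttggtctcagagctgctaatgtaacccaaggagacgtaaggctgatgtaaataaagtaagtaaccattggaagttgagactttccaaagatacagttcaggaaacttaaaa
SEMA3E: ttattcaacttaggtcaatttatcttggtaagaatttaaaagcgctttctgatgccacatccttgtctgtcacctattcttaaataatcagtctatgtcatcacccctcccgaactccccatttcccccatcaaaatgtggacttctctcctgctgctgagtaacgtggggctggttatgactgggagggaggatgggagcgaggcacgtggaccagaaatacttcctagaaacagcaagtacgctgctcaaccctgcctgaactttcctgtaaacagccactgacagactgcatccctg
NRP2: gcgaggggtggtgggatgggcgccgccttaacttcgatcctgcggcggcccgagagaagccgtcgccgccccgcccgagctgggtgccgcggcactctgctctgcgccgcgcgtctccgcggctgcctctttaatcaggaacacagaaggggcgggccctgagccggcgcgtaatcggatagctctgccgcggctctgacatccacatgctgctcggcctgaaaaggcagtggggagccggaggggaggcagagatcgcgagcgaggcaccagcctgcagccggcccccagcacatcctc
UNC5C: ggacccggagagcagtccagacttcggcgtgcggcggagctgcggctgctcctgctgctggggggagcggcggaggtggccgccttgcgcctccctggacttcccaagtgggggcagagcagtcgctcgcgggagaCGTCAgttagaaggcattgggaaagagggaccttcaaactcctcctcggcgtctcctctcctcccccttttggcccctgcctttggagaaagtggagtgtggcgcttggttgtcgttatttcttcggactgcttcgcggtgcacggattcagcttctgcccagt
Only UNC5C, of these 5, holds a match, a core on the opposite strand that begins 114 bases before the start. The core is in 10 of the 39 members that have an entry (25.6%) and in 25.0% of all 27305 promoters of the table. The full element is in 1 of the 39, SEMA4C, and in 1.98% of all promoters. A match describes letters in this window and shows no binding.

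The class 3 semaphorins are the secreted branch of the vertebrate semaphorins, and all 7 were tested. All passed, 4 higher (SEMA3A, SEMA3B, SEMA3C and SEMA3G) and 3 lower (SEMA3D, SEMA3E and SEMA3F), and in none did the groups overlap. For comparison, 48.1% of all tested genes were called, and the groups did not overlap in 41.6% of them all. Sizes were uneven: SEMA3F changed only 1.08-fold, and the SEMA3D call was lost under 4 alternatives.

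SEMA3C (ENSG00000075223, chromosome 7, 80742538 to 80922359, minus strand) is needed for the cardiac outflow tract in mice and binds NRP1, NRP2 and PLXND1. Its level was 27.6, 27.7, 28.2 and 30.1 CPM in parental replicates 1 to 4 and 109.7, 107, 105 and 110.0 CPM in GNAS R201C/+ replicates 1 to 4. Every edited library was thus above every parental one, with little spread within a group. This made 1.93 ± 0.03 (SE) on the log2 scale (edgeR adjusted p = 1.71e-39).

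SEMA3A (ENSG00000075213, chromosome 7, 83955777 to 84492724, minus strand) is the classical growth cone repellent and binds NRP1. It was counted at 3.86, 3.76, 3.39 and 3.45 CPM in parental and 9.89, 10.3, 9.82 and 9.76 CPM in GNAS R201C/+ libraries. All edited libraries were higher, for a log2 fold change of 1.45 ± 0.07 (SE; edgeR adjusted p = 1.57e-21).

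SEMA3B (ENSG00000012171, chromosome 3, 50267558 to 50277546, plus strand), a candidate tumour suppressor, was at 39.9, 43.6, 42.8 and 40.2 CPM in parental and 69.5, 72.2, 73.4 and 69.6 CPM in GNAS R201C/+ libraries. The groups were well apart, with a log2 fold change of 0.78 ± 0.03 (SE; edgeR adjusted p = 2.50e-24). SEMA3G rose less, from 8.82 ± 0.404 to 10.5 ± 0.313 CPM (SD, n = 4; edgeR adjusted p = 0.000149).

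SEMA3E (ENSG00000170381, chromosome 7, 83363238 to 83649113, minus strand) signals through PLXND1 without a neuropilin. It had 1.53, 1.37, 1.62 and 1.71 CPM in parental and 0.814, 0.570, 0.719 and 0.697 CPM in GNAS R201C/+ libraries, all low. The edited libraries were all below the parental ones. The log2 fold change was -1.15 ± 0.15 (SE; edgeR adjusted p = 4.34e-08), from 284 parental and 132 edited reads.

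SEMA3D, which acts in heart and vessel development, was at 1.02, 1.26, 0.998 and 0.985 CPM in parental and 0.792, 0.636, 0.846 and 0.881 CPM in GNAS R201C/+ libraries. Its log2 fold change of -0.43 ± 0.16 (SE; edgeR adjusted p = 0.0264) lost its call without parental replicate 2 (adjusted p = 0.116), without GNAS R201C/+ replicate 2 (0.101), with DESeq2 (0.112) and with no filter on low counts (0.0584). SEMA3F, which binds NRP2, fell from 32.5 ± 1.04 to 30.2 ± 0.403 CPM (SD, n = 4), a log2 change of -0.11 (edgeR adjusted p = 0.00694).

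Levels of different genes were compared per kilobase of annotated exon. On this scale the class 3 semaphorins summed to 20.9 ± 0.339 in parental and 39.2 ± 0.159 CPM per kb in GNAS R201C/+ libraries (SD, n = 4). SEMA3C made up 21.6% ± 1.09 of the summed level in parental and 44.0% ± 0.974 in GNAS R201C/+ libraries. SEMA3F went from 32.1% ± 1.02 to 15.9% ± 0.150 and SEMA3B from 34.4% ± 1.11 to 31.5% ± 0.796. The order by level was SEMA3B, SEMA3F, SEMA3C in parental and SEMA3C, SEMA3B, SEMA3F in GNAS R201C/+ libraries. In parental libraries SEMA3B at 7.21 and SEMA3F at 6.73 CPM per kb lay close together, and in GNAS R201C/+ libraries SEMA3C was at 17.3 and SEMA3B at 12.3 CPM per kb. SEMA3A, SEMA3D and SEMA3E together stayed a minor share in both groups.

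**Figure D2:**
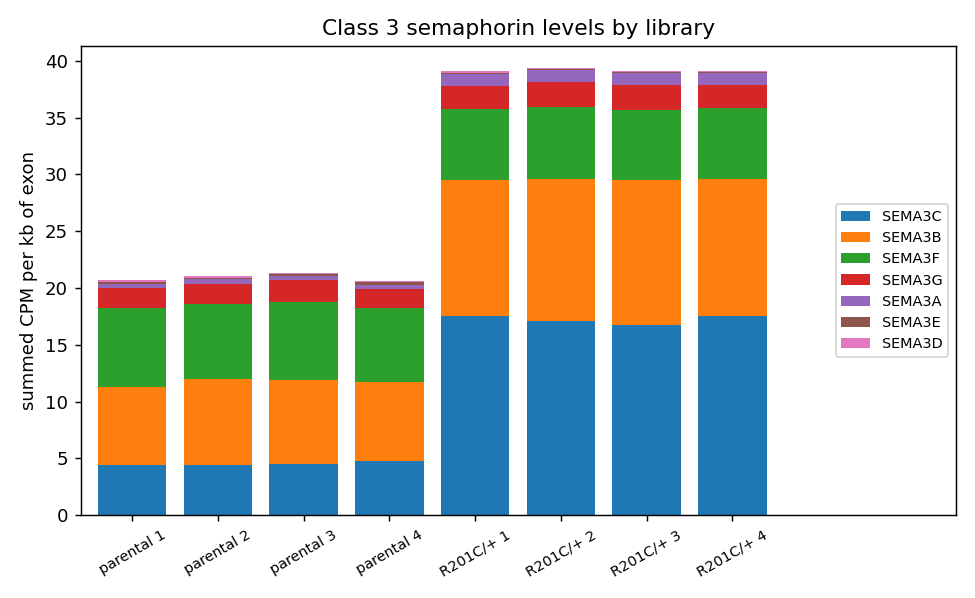
Summed level of the 7 class 3 semaphorins in each library (vertical axis, CPM per kb of exon; stacked bars, 1 per library). Bars reach 20.6 to 21.3 in parental and 39.1 to 39.4 in GNAS R201C/+ libraries, and the SEMA3C segment at the bottom is larger in every edited library.

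SEMA3C, SEMA3E, SEMA3A and SEMA3D lie in this order within chromosome 7, 80742538 to 85186855, and they changed in opposite directions: SEMA3C and SEMA3A rose, and SEMA3E, which lies between them, and SEMA3D fell. Of 3 other protein-coding genes in that span, PCLO, a presynaptic scaffold gene, was tested and rose by 0.42 on the log2 scale (edgeR adjusted p = 1.73e-06), CACNA2D1 had too few reads and HGF was listed at 0. On chromosome 3, SEMA3F, SEMA3B and SEMA3G lie within 50155045 to 52445085. Of 42 other tested protein-coding genes there, 24 were higher and 7 lower, against 24.1% higher and 24.0% lower over all tested genes.

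The semaphorins of classes 4 to 7 are mostly bound to the membrane. Of these 13 genes 9 were tested, 2 were higher, 3 were lower and 4 did not pass, and none of them changed 2-fold. The share called, 55.6%, was near the 48.1% of all tested genes, of which 1.54% changed 2-fold, so that none of 9 is no departure from the background. The clearest were SEMA6A, SEMA7A and SEMA6B.

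SEMA6A, a transmembrane ligand of PLXNA2 and PLXNA4, was at 9.72, 11.3, 11.2 and 11.9 CPM in parental and 7.43, 7.91, 8.04 and 8.45 CPM in GNAS R201C/+ libraries. The groups did not overlap, and the log2 fold change was -0.47 ± 0.06 (SE; edgeR adjusted p = 2.26e-08). SEMA7A, which is tied to the membrane by a lipid anchor and binds PLXNC1 and integrin beta 1, was at 40.4, 41.9, 41.1 and 41.6 CPM in parental and 34.0, 33.2, 31.5 and 30.9 CPM in GNAS R201C/+ libraries. It fell in every edited library, with a log2 fold change of -0.35 ± 0.03 (SE; edgeR adjusted p = 7.25e-12).

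SEMA6B, a transmembrane ligand of PLXNA4, was at 193, 185, 185 and 182 CPM in parental and 216, 225, 227 and 228 CPM in GNAS R201C/+ libraries. All edited libraries were above the parental ones, and the log2 fold change was 0.27 ± 0.02 (SE; edgeR adjusted p = 1.28e-13). Per kilobase SEMA6B was the most abundant semaphorin in both groups, at 42.2 ± 1.04 and 50.7 ± 1.26 CPM per kb (SD, n = 4), which was 40.9% and 39.5% of the summed semaphorin level. SEMA6C was at 13.1 ± 0.837 and 13.4 ± 0.578 CPM and did not pass (edgeR adjusted p = 0.646).

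In class 4, SEMA4F rose from 23.3 ± 1.01 to 25.5 ± 0.887 CPM (SD, n = 4; edgeR adjusted p = 0.00511). SEMA4D, also known as CD100 on lymphocytes and a ligand of PLXNB1, was at 34.8 ± 1.19 and 32.8 ± 0.439 CPM (edgeR adjusted p = 0.0306), with single libraries overlapping, and this call was lost under 8 of the 16 alternatives (adjusted p 0.00810 to 0.106 over them). Those were DESeq2, no filter on low counts, and leaving out parental replicate 1, 2 or 3 or GNAS R201C/+ replicate 2, 3 or 4. SEMA4B, SEMA4C, a ligand of PLXNB2, and SEMA4G had log2 changes of 0.07, 0.02 and 0.06 and did not pass (edgeR adjusted p = 0.0562, 0.589 and 0.174). SEMA4G shares 1170 of its 5253 exonic bases with MRPL43 on the opposite strand and is uncertain. SEMA4A had 2 to 10 reads in a library and SEMA5B 1 to 7, so neither was tested, and SEMA5A and SEMA6D were listed at 0 in all 8 libraries.

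Of the netrins, NTN1 and NTN4 are members and were lower, while NTN5 and NTNG2, from the list of partner genes, were higher. NTN4, a basement membrane netrin that binds laminins, was at 6.30, 5.89, 6.01 and 6.10 CPM in parental and 4.99, 4.06, 4.72 and 4.71 CPM in GNAS R201C/+ libraries. All edited libraries were lower, with a log2 fold change of -0.40 ± 0.07 (SE; edgeR adjusted p = 2.14e-05). NTN1, the netrin that attracts commissural axons, fell from 23.3 ± 0.646 to 21.7 ± 0.630 CPM (SD, n = 4; edgeR adjusted p = 0.0216). The NTN1 call was lost with DESeq2 (adjusted p = 0.0672) and without parental replicate 4 or GNAS R201C/+ replicate 1 or 4 (0.0724, 0.0586 and 0.0756). Over all 16 alternatives its adjusted p was 0.0151 to 0.0756. NTN5 rose from 1.35 ± 0.143 to 2.12 ± 0.270 CPM, and NTNG2, a netrin G protein tied to the membrane by a lipid anchor, rose from 1.56 ± 0.227 to 2.42 ± 0.363 CPM (SD, n = 4; edgeR adjusted p = 4.22e-05 and 5.93e-05). These rises, 0.65 and 0.63 on the log2 scale, were in genes of lower level than NTN1 and NTN4. NTN3 had 1 to 6 reads in a library and was not tested, and NTNG1 was listed at 0.

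Slits did not pass. SLIT2 was at 3.97 ± 0.282 and 3.79 ± 0.233 CPM and SLIT1 at 1.54 ± 0.183 and 1.46 ± 0.0634 CPM (SD, n = 4; edgeR adjusted p = 0.573 and 0.643). Their log2 changes of -0.06 and -0.08 had standard errors of 0.08 and 0.13, so a change of that size was not detectable at this depth. SLIT3 had 0 to 3 reads in a library and was not tested.

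Neuropilins were scarce compared with plexins. NRP2 (ENSG00000118257, chromosome 2, 205681990 to 205798133, plus strand) was at 1.69, 1.48, 1.02 and 1.5 CPM in parental and 0.300, 0.614, 0.317 and 0.410 CPM in GNAS R201C/+ libraries. The highest edited library, replicate 2, was below the lowest parental one, replicate 3. The log2 fold change was -1.80 ± 0.20 (SE; edgeR adjusted p = 8.60e-10). Reads numbered 262 and 77, a GNAS R201C/+ to parental ratio of 0.285 with an exact 95% binomial interval of 0.218 to 0.368, which covers counting error only.

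NRP1, the neuropilin of SEMA3A, had 23 to 35 reads in parental and 26 to 38 reads in GNAS R201C/+ libraries. Its log2 fold change was 0.11 ± 0.19 (SE; edgeR adjusted p = 0.665), and the 95% counting interval of the GNAS R201C/+ to parental ratio, 0.839 to 1.39, leaves a moderate change in either direction undetectable. Both neuropilins are known as endothelial and neuronal genes as well, but all 8 libraries came from the HCT116 line. The endothelial and neuronal marker sums given above were mostly EGFL7 and SYT1. In RNA from whole cultures, fewer cells with a transcript and less transcript per cell cannot be told apart.

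Plexins made up most of the receptor level. Of 9 plexins 7 were tested, 2 were higher (PLXNA3 and PLXNB2), 2 were lower (PLXNA1 and PLXNB1) and 3 did not pass. That is 57.1% called, near the 48.1% of all tested genes. PLXNB2, the receptor of SEMA4C, was the most abundant member of all 46 per kilobase, at 66.4 ± 1.17 in parental and 68.8 ± 1.24 CPM per kb in GNAS R201C/+ libraries (SD, n = 4). Its log2 change of 0.05 (edgeR adjusted p = 0.0254) was lost without parental replicate 1 or 4 or GNAS R201C/+ replicate 2 (adjusted p = 0.0582, 0.101 and 0.108), and ran from 0.0186 to 0.108 across all 16 alternatives.

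PLXNB1, the receptor of SEMA4D, fell from 60.9 ± 3.19 to 52.2 ± 1.28 CPM (SD, n = 4), with a log2 fold change of -0.22 ± 0.03 (SE; edgeR adjusted p = 1.26e-07). PLXNA1 fell from 126 ± 4.16 to 115 ± 3.82 CPM and PLXNA3 rose from 77.1 ± 2.88 to 83.8 ± 2.10 CPM (SD, n = 4; edgeR adjusted p = 3.65e-05 and 0.000184). These class A plexins pair with neuropilins to receive class 3 semaphorins. Their changes, -0.13 and 0.12 on the log2 scale, were opposite in direction.

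PLXND1, the receptor of SEMA3E, was at 86.2 ± 3.23 and 85.7 ± 2.51 CPM, a log2 change of -0.01 ± 0.03 (SE; edgeR adjusted p = 0.815). PLXNB3 had a log2 change of 0.02 ± 0.09 (SE; edgeR adjusted p = 0.853) and is uncertain, since it shares 1432 of 7007 exonic bases with SRPK3 on the same strand. PLXNA2 was at 1.71, 1.70, 1.72 and 0.798 CPM in parental and 1.33, 1.40, 1.25 and 1.25 CPM in GNAS R201C/+ libraries, and parental replicate 4 alone was low. Its log2 change of -0.19 did not pass (edgeR adjusted p = 0.371). Without that library it was -0.39 and passed (adjusted p = 0.0179), and over all 16 alternatives the adjusted p was 0.0179 to 0.652. PLXNC1 had 7 to 20 reads in a library and PLXNA4 0 to 3, and neither was tested.

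**Figure D3:**
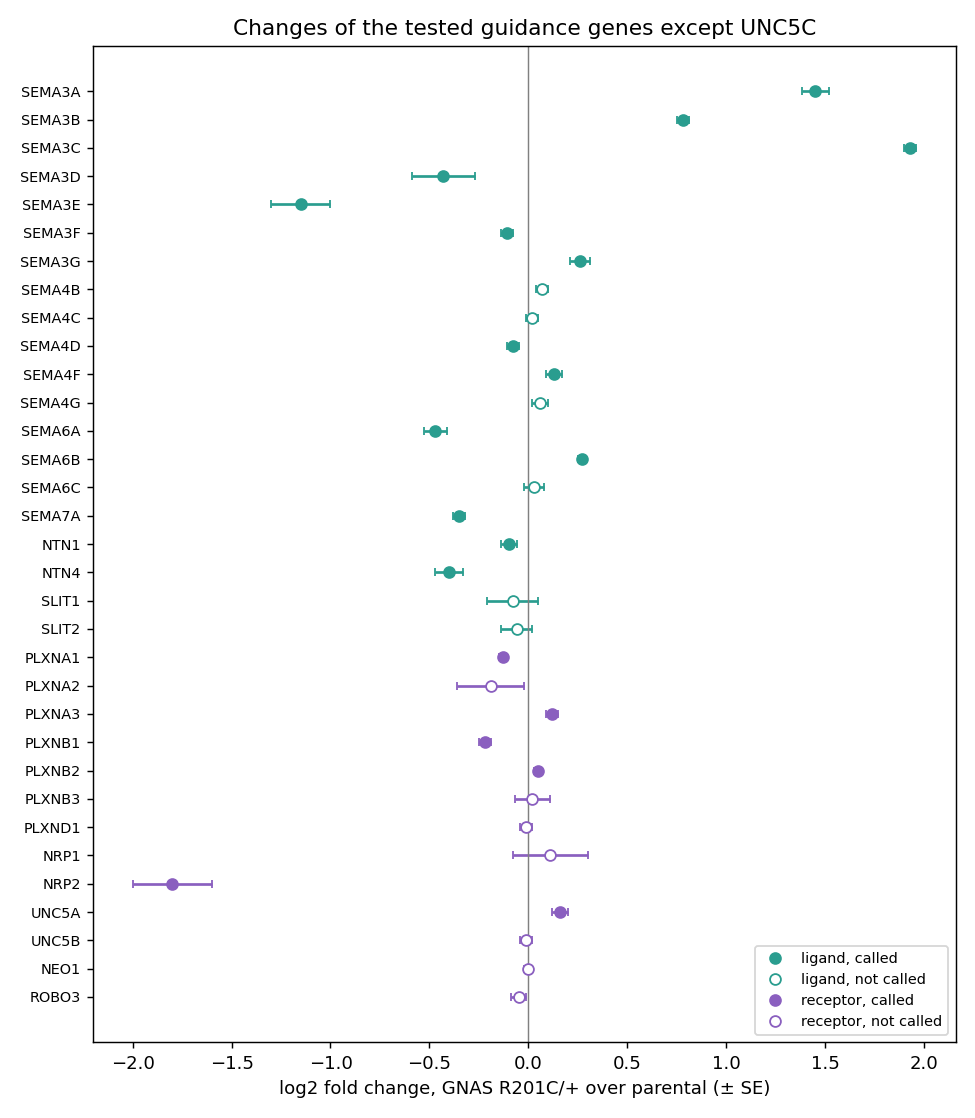
Log2 fold change of GNAS R201C/+ over parental (horizontal axis) with its standard error for 33 of the 34 tested guidance genes. UNC5C is left out because it had no parental reads. Filled points passed an adjusted p under 0.05, and SEMA3C at 1.93 and NRP2 at -1.80 mark the ends of the range.

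Among netrin receptors UNC5C stood apart in its counts. UNC5 proteins mediate repulsion by netrin and can signal cell death when netrin is absent, which is why they are called dependence receptors. UNC5C (ENSG00000182168, chromosome 4, 95162504 to 95549206, minus strand) had 0 reads in each parental library and 13, 15, 12 and 13 reads in GNAS R201C/+ replicates 1 to 4, or 0.278, 0.329, 0.254 and 0.266 CPM. All edited libraries were thus above all parental ones, at a very low level. It was higher by the edgeR test (adjusted p = 8.16e-09), but it met the read filter only through the GNAS R201C/+ libraries. The p-value of UNC5C is therefore no support beyond the counts themselves. Set against a floor of 3 counts over the parental group, which is 0.0164 CPM and covers counting error only, UNC5C was at least 17.1-fold higher. An antisense gene that overlaps 78 of its exonic bases had no reads.

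UNC5A rose from 19.1 ± 0.803 to 21.3 ± 0.630 CPM, a log2 change of 0.16 (SD, n = 4; edgeR adjusted p = 0.00102). UNC5B, which also acts in blood vessels, and NEO1, the neogenin receptor of netrins and repulsive guidance molecules, had log2 changes of -0.01 ± 0.03 and -0.003 ± 0.02 (SE; edgeR adjusted p = 0.825 and 0.927). UNC5B was the most abundant UNC5 receptor per kilobase, at 7.91 and 7.86 CPM per kb. Netrin receptor reads in both groups were therefore mostly of NEO1, UNC5B and UNC5A. DCC and UNC5D were listed at 0 in all 8 libraries.

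Of the roundabouts, ROBO3 was the only member with enough reads to be tested, at 16.7 ± 0.666 and 16.1 ± 0.721 CPM (SD, n = 4), and did not pass (edgeR adjusted p = 0.333). ROBO3 is the divergent family member that lets commissural axons cross the midline. ROBO4, the endothelial member, had 3, 3, 0 and 4 reads in parental libraries and 0 in all GNAS R201C/+ libraries and was not tested, and 744 of its 7033 exonic bases are shared with an antisense gene. The main slit receptors ROBO1 and ROBO2 were listed at 0 in all 8 libraries. The ribosomal protein genes RPS18 and RPS25, which cells use widely, were also listed at 0 in all libraries, so a listing at 0 in this table does not show that SEMA5A, SEMA6D, DCC, UNC5D, ROBO1 or ROBO2 was silent.

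Ligands and receptors were then set side by side. Of 20 tested ligand genes 6 were higher and 8 lower (70.0% called), and of 14 tested receptor genes 4 were higher and 3 lower (50%), against 48.1% of all tested genes. The median size of the log2 change was 0.19 for ligands and 0.12 for receptors. The 8 lower ligands became 5 with DESeq2 and 6 to 7 in the fits without 1 library, where SEMA3D, SEMA4D or NTN1 lost their calls. Changes of at least 2-fold were in 3 ligand genes (15.0%) and 2 receptor genes (14.3%, NRP2 and UNC5C), against 1.54% of all tested genes. The summed ligand level was 109 ± 1.07 in parental and 133 ± 1.53 CPM per kb in GNAS R201C/+ libraries, and the summed receptor level was 124 ± 2.31 and 125 ± 2.04 CPM per kb (SD, n = 4). The difference between ligands and receptors was not tested.

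Known pairs numbered 55, and in 31 both sides were tested. Both sides passed in 15 of these: 2 with both higher, 4 with both lower, 5 with the ligand higher and the receptor lower, and 4 with the ligand lower and the receptor higher. In another 13 only the ligand passed and in 3 only the receptor. Pairs with the ligand lower and the receptor higher were SEMA3F with PLXNA3, SEMA4D with PLXNB2, and NTN1 with UNC5A and UNC5C. Several counted pairs include SEMA3D, SEMA4D, NTN1 or PLXNB2, whose calls were lost under some alternatives. UNC5C met the read filter only through the GNAS R201C/+ libraries. For comparison, 48.1% of all tested genes were called, with 24.1% higher and 24.0% lower. Pairs share members and are not independent, so these counts describe the list and test nothing. SEMA3C met a receptor set in which NRP2 fell while PLXND1, NRP1 and PLXNA2 did not pass. The ratio of SEMA3C to NRP2 per kilobase was 36.1, 41.5, 61.3 and 44.4 in parental and 811, 388, 736 and 595 in GNAS R201C/+ libraries. The lowest ratio in an edited library was thus well above the highest in a parental one, though NRP2 rested on 14 to 28 reads there. Both genes already separated the groups in opposite directions, so the separation of the ratio follows from them and adds no evidence on the pair. The ratio of SEMA3C to PLXND1, both well counted, went from 0.512 ± 0.0366 to 1.96 ± 0.0948 (SD, n = 4).

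SEMA3E, which fell, is a ligand of PLXND1, which was at nearly the same level in both groups. SEMA4D and its receptor PLXNB1 were both lower, though the SEMA4D call was lost under 8 of the 16 alternatives. SEMA7A fell, and its plexin, PLXNC1, was barely detected, at 0.0194 and 0.0273 CPM per kb. SEMA6B, the most abundant semaphorin, had little of its receptor PLXNA4 in these cells, with at most 3 reads in a library. For NTN1 the ratio to UNC5B per kilobase was 0.461 ± 0.0149 in parental and 0.432 ± 0.0146 in GNAS R201C/+ libraries (SD, n = 4).

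**Figure D4:**
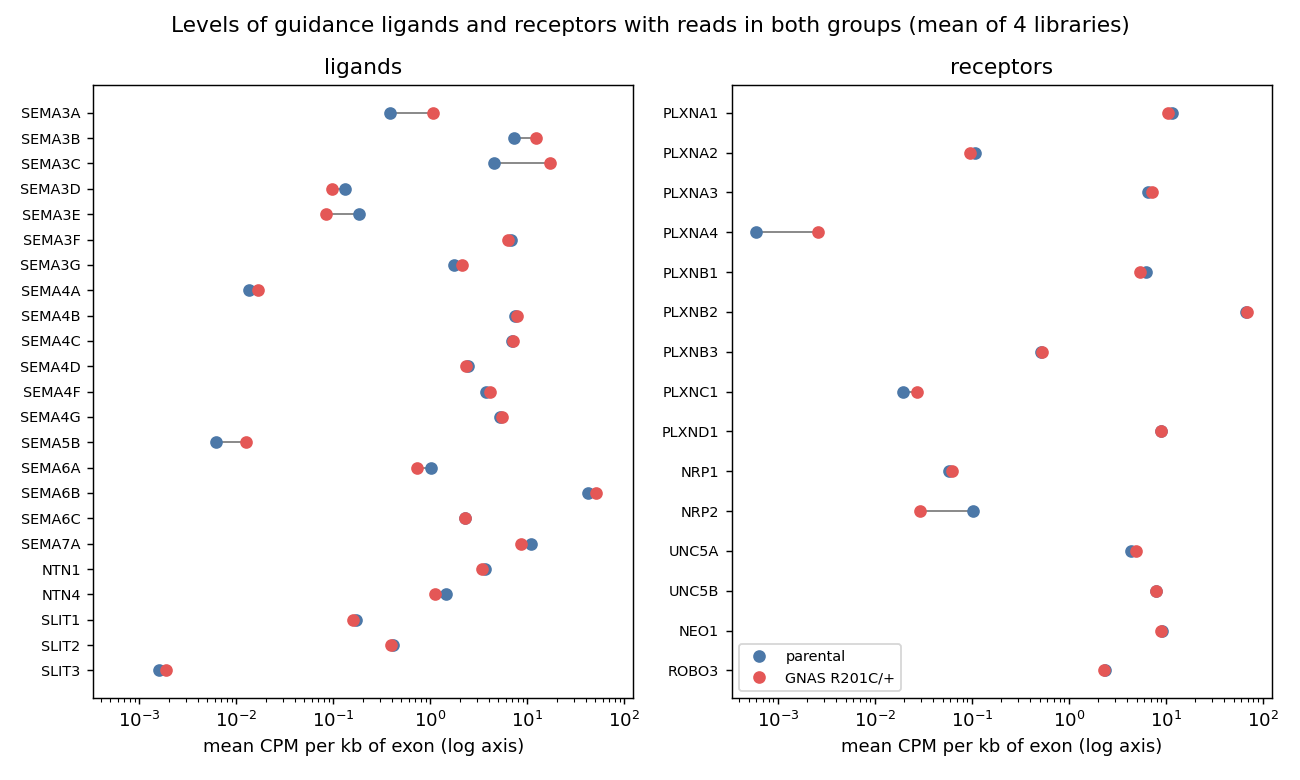
Mean level of 4 libraries per group (horizontal axis, CPM per kb of exon, log axis) for the 23 ligand and 15 receptor genes with reads in both groups. SEMA3C moves from 4.53 to 17.3, NRP2 from 0.102 to 0.0295, and PLXNB2 and SEMA6B are the most abundant receptor and ligand. Points under 0.03 rest on few reads.

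Partners and effectors of the same pathways were read from a separate list of 106 genes, of which 105 matched the table (RGMC did not). Of 90 tested, 24 were higher, 38 were lower and 28 did not pass, 68.9% called against 48.1% of all tested genes. Small changes can pass in highly counted genes: RHOA, at 713 CPM in parental libraries, was called with a log2 change of 0.05. The part of read depth in the called share was not tested. The median log2 change was -0.04 and its median size 0.12, the same size as over all tested genes (0.12). None of these changed 2-fold, and as only 1.54% of all tested genes did, none of 90 is no clear departure from the background. By the naming rule the falling genes were DPYSL3, TIAM1, ABLIM1 and SRGAP1, and the rising genes SDC4, SSH3, DAG1 and ITGB1. DPYSL3, a collapsin response mediator of semaphorin signalling, fell from 60.7 ± 2.25 to 32.3 ± 0.756 CPM (SD, n = 4), a log2 change of -0.91 (edgeR adjusted p = 2.62e-26). TIAM1, an exchange factor that activates Rac, fell from 77.6 ± 0.509 to 45.8 ± 2.15 CPM (edgeR adjusted p = 5.82e-25).

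ABLIM1, an actin-binding LIM protein linked to netrin responses in worms, fell from 388 ± 1.81 to 307 ± 5.21 CPM, and SRGAP1, which binds ROBO1 and turns off small GTPases, fell from 51.7 ± 1.72 to 36.5 ± 1.72 CPM (SD, n = 4; edgeR adjusted p = 1.71e-18 and 1.59e-16). The heparan sulfate carrier SDC4 rose from 104 ± 3.89 to 120.5 ± 2.47 CPM and the cofilin phosphatase SSH3 from 50.7 ± 1.35 to 60.6 ± 2.69 CPM (edgeR adjusted p = 1.62e-09 and 1.71e-09). DAG1, dystroglycan, which binds slits, rose by 0.17 on the log2 scale, and ITGB1, a receptor of SEMA7A, by 0.14 (edgeR adjusted p = 4.40e-09 and 4.29e-08).

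By role, slit receptor effectors (14 tested) had 3 higher and 8 lower, netrin receptor effectors (18 tested) 3 higher and 10 lower, and plexin and neuropilin effectors (29 tested) 9 higher and 11 lower. Cytoskeletal outputs (11 tested) had 2 higher and 5 lower. Other ligands and binding partners (10 tested) had 4 higher and 3 lower, and co-receptors (8 tested) had 3 higher and 1 lower. The called shares were 78.6% of slit receptor effectors, 72.2% of netrin receptor effectors, 69.0% of plexin and neuropilin effectors, 63.6% of cytoskeletal outputs, 70.0% of other ligands and binding partners and 50% of co-receptors. Over all tested genes 48.1% were called, 24.1% higher and 24.0% lower. The median size of the log2 change was 0.08 to 0.2 across these roles, beside 0.12 over all tested genes. The part of read depth in the shares by role was not tested either.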

How the data were processed

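The submitters' processing notes name STAR, featureCounts, Trimmomatic, bcl2fastq and DESeq2, and the build GRCh38.p12. The sources used here give no versions, annotation release, strand setting or rule for multiply mapped reads, so reads of overlapping genes could be mixed. The authors deposited whole-number read counts per Ensembl gene for 8 libraries, and all 8 columns were used. GENCODE 29 named 58502 of the 60609 identifiers.

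Counts were tested in R 4.3.3 with edgeR 4.0.16: the filterByExpr rule (minimum count 10, minimum total 15), which kept 15751 of 32806 genes with any read, TMM scaling, a robust quasi-likelihood fit with group as the only term, and Benjamini-Hochberg adjustment over all tested genes at 0.05. The standard error is the absolute log2 fold change over the square root of F, an approximation. CPM used TMM-adjusted library sizes. CPM per kb divides by the union of annotated exons, which may be longer than the transcripts present. The edgeR test was tested on simulated data, where the share of false calls was somewhat above the nominal rate. Only 200 genes were changed there, far fewer than were called here, so that share does not carry over to these calls.

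The members and lists were chosen with earlier results of these data known. Values in every library are given for members called with a change of at least 1.2-fold. Partner genes were named as the up to 4 rising and 4 falling with the smallest adjusted p. Other genes named were chosen after their values were seen. Any 2 replicates of a group differed beyond sampling noise (chi-square per degree of freedom 1.62 to 4.11), so none was counted as a duplicate. Alternatives were DESeq2 1.42.0, limma-voom (limma 3.58.1), other scalings and filters, a replicate block, and fits without each library.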

Additional observations from a re-analysis of the deposited data

Results flagged for a closer look

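In 2 of 68 groups of 4 libraries, those of the 34 tested members in each condition, a single library lay farther from the others than expected at the 95% level of Dixon's test, which flags about 1 in 20 groups by chance. PLXNA2 was at 0.798 CPM in parental replicate 4, while the other parental libraries were at 1.70 to 1.72 CPM. SEMA3D was at 1.26 CPM in parental replicate 2, while the other parental libraries were at 0.985 to 1.02 CPM.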

How the results depend on the processing

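Of the 21 called members, 17 were called under every one of the 16 alternatives in which they were tested, and no called member turned direction in any. SEMA3D, SEMA4D, NTN1 and PLXNB2 lost their call under at least 1 alternative, as given with their values. Of the 13 members that did not pass, SEMA4B passed without parental replicate 1 or GNAS R201C/+ replicate 1 or 2 (adjusted p = 0.0265, 0.0143 and 0.0344), and PLXNA2 without parental replicate 4. With DESeq2 the count of lower ligands was 5 in place of 8, and the cause was not tested. With no filter on low counts 4 receptors were lower, the fourth being ROBO4. Over the libraries left out in turn, members higher numbered 9 to 11 and members lower 9 to 11, ligands higher 6 to 7 and lower 6 to 7, receptors higher 3 to 4 and lower 3 to 4, and partner genes higher 20 to 26 and lower 34 to 37. Over the whole table these fits called 3416 to 3736 genes higher and 3400 to 3706 lower. A filter of 1 CPM in 4 libraries removed UNC5C, NRP1 and SEMA3D from the test. Scalings moved the median log2 change of all genes by less than 0.1. With the replicate number as a block, 10 members were higher and 11 lower, and 3704 genes were higher and 3709 lower over the whole table; no member's call changed. Same-numbered libraries did not deviate together (Pearson r over genes -0.047 to 0.054), so no pairing by number was seen. Such a check cannot exclude that same-numbered libraries were handled together. Depth limits SEMA3E, SEMA3D, NRP1, NRP2, UNC5C, PLXNA2 and SLIT1, the tested members with the fewest reads.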
